A study of Homo sapiens with 16 samples.

Results

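The genes described here are 58 genes of mitosis and the G2/M transition, chosen by symbol from the 26485 genes of a count table: cyclins and mitotic kinases, spindle checkpoint genes, kinesins, kinetochore genes, spindle and cytokinesis genes, genes of chromosome structure, and the transcription factor FOXM1. All 58 were found in the table and all 58 passed the filter on low counts in every comparison. Total RNA was sequenced from PC3, a prostate cancer cell line, and HeyA8, an ovarian cancer cell line, both labelled wt. In each line, cells were mock treated or transfected with the non-targeting siRNA siNT1, with siGGGGGC, whose name gives the 6 bases of its seed (the titles and count columns of these libraries call it siMxy, and the treatment labels siGGGGGC), or with siCAG, an siRNA that is named but not described in the sources used here. The labels give 1 nM of siRNA for all transfected cells, and the study's methods give a higher dose, so the dose is uncertain. RNA was taken at 24 and 48 h, with 1 library for each line, treatment and time, so 16 libraries in all and 8 in each line. Between 27937092 and 31790209 reads were counted on genes per library. The 24 and 48 h libraries of a treatment were used as its 2 samples. The study's methods describe wells transfected together, some lysed at the earlier time and the remaining ones at the later time, so p-values measure only the spread between such libraries, which may be technical. Comparisons of treatments within a line used 1 time term for all treatments. Their spread thus also holds any difference between treatments in the change from 24 to 48 h. Levels are CPM, counts divided by library size and scaled by the TMM method within a line.

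Cells enter mitosis when CDK1 bound to cyclin B is activated, and PLK1 and the Aurora kinases then drive centrosome separation, spindle assembly and chromosome segregation. The spindle checkpoint holds CDC20 and the anaphase promoting complex back until every kinetochore is attached. The RNAs of these genes rise together in late S and G2 phase, and in proliferating tumour lines they are abundant. Many of their promoters hold a cell cycle homology region (CHR), read by the MuvB core of the DREAM and MYB-FOXM1 complexes, next to CCAAT boxes bound by NF-Y. RNA was taken from whole cultures, so fewer cells in G2 and mitosis and less of each RNA per cell cannot be told apart.

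RefSeq promoter windows of 300 bases (250 before and 50 after the start site, GRCh38.p14) were matched for 50 of the 58 symbols and gave 58 windows. The CHR was searched as TTTGAA or TTCGAA and the NF-Y box as CCAAT, each on both strands, and matches may share bases. The CHR was found in 41 windows (70.7%) against 16.4% of all 35116 windows and 13.7% of the 22198 windows of protein-coding genes. CCAAT was found in 44 (75.9%) against 34.6% and 34.7%, and both motifs in 34 (58.6%) against 6.38% and 5.48%. An E2F-like pattern, searched on both strands as TTCCCGC and also in the form TTGGCGC and in the form TTCGCGC, was found in 15 (25.9%) against 11% and 13.8%. Among the 50 genes, 32 had a window with both motifs, 14 had 1 of them, and CENPE, CKAP2, KIF2C and MELK had neither. The 4 windows shown belong to genes with very different levels in HeyA8 cells at 48 h after siCAG. They are PLK1 (chr16:23678639-23678938, plus strand) and MKI67 (chr10:128126374-128126673, minus strand), at 0.816% and 0.253% of the siNT1 level, and KIF18A (chr11:28108107-28108406, minus strand) and CKAP2 (chr13:52455738-52456037, plus strand), at 43.2% and 23.8%. Capitals mark CHR and CCAAT matches in either direction.
PLK1: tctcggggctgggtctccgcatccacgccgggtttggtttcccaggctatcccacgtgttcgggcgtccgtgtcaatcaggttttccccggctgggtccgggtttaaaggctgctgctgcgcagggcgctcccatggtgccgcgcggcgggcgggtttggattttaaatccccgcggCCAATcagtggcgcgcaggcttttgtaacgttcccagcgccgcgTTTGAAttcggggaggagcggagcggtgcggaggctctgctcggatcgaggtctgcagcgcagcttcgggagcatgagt
MKI67: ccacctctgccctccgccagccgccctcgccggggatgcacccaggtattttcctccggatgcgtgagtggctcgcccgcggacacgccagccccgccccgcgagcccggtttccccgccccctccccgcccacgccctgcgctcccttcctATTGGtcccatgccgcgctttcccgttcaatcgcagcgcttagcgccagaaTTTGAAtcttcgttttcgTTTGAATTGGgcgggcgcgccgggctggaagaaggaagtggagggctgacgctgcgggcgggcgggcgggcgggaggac
KIF18A: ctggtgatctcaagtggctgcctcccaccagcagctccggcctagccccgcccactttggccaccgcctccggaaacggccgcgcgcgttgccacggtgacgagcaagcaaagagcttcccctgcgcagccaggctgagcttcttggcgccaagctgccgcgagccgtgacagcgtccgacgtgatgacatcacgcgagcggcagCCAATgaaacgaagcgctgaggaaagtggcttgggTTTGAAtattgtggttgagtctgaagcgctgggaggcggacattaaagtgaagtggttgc
CKAP2: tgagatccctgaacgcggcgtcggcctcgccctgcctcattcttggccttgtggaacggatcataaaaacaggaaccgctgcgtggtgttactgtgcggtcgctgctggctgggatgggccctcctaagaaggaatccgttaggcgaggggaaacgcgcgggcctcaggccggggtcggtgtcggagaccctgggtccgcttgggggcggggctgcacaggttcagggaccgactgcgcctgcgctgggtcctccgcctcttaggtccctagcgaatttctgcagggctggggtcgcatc
In PLK1 the CHR match began 29 bases before the start site and the CCAAT match 73 bases before it. In MKI67 there were 2 matches of each motif, and 1 of the CHR matches overlapped 1 of the CCAAT matches. In KIF18A the CHR match began 10 bases and the CCAAT match 45 bases before the start, and CKAP2 held neither string of letters.

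The siRNA siGGGGGC pairs through its seed with GCCCCC in 3′ UTRs. In the longest annotated 3′ UTR of each gene (GENCODE 44, hg38), GCCCCC was present in 4 of the 58 genes (6.9%) and in 5407 of 17791 genes of the table that could be matched (30.4%). The 3′ UTRs of the 58 genes had a median length of 766.5 bases and a median GC content of 34.1%, against 1266 bases and 42.7% over the matched genes. The 4 sites are given with up to 30 bases around the match, which is in capitals, since they are the only ones in the group: BIRC5 (chr17:78225561-78225566, plus strand), INCENP (chr11:62152461-62152466, plus strand), MKI67 (chr10:128098127-128098132, minus strand) and PLK1 (chr16:23690158-23690163, plus strand).
BIRC5: agccaaactggaGCCCCCattgcaggctgt
INCENP: caccaggtgcagGCCCCCaccctcggagat
MKI67: actttccactttGCCCCCtgtcctctctgt
PLK1: tgtctgcagtgtGCCCCCcagccccggtgg

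The summed level of the 58 genes gave the pattern of the whole group. In PC3 cells it was 10006 CPM at 24 h and 8620 CPM at 48 h after mock treatment, and 7354 and 6015 CPM after siNT1. After siGGGGGC it was 6208 and 6108 CPM, and after siCAG 5703 and 3233 CPM. Every PC3 library that received an siRNA was below both mock libraries, and the siCAG library at 48 h was the lowest. In HeyA8 cells the sum was 11989 and 12275 CPM after mock treatment, 10635 and 11174 CPM after siNT1, and 13460 and 12468 CPM after siGGGGGC. After siCAG it was 4517 CPM at 24 h and 402 CPM at 48 h. The HeyA8 siCAG library at 48 h thus held 3.6% of the siNT1 sum at the same time and stands apart from all others, so the counts, the median and the folds of the called genes are also given without it. Its total of 30360281 counts, its 16614 detected genes and its TMM factor of 1.016 lay close to those of the other HeyA8 libraries, and the 50 most abundant genes took 16.6% of its counts and 18.8% of those of the siCAG library at 24 h, against 14% in both siNT1 libraries.

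**Figure D1:**
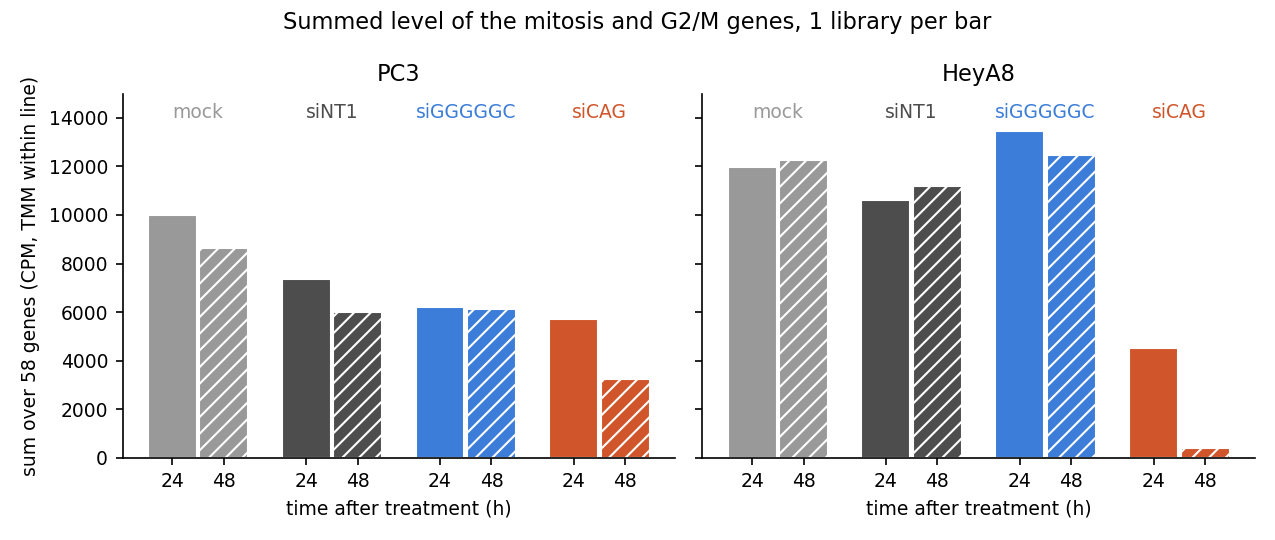
Summed level of the 58 genes in each of the 16 libraries, in CPM scaled within the line, with plain bars for 24 h and hatched bars for 48 h. Each bar is 1 library and has no error. The HeyA8 siCAG bars stand at 4517 and 402 CPM, below every other HeyA8 library, and the PC3 siCAG bar at 48 h is the lowest of its line at 3233 CPM.

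Markers were read to check the labels of the lines. The epithelial keratins KRT8 and KRT18 were between 129 and 325 CPM in PC3 cells and between 265 and 932 CPM in HeyA8 cells. All 5 epithelial genes reached 1 CPM in PC3 cells, while in HeyA8 cells CDH1 (E-cadherin) and KRT19 stayed under 1 CPM in every library and VIM, the mesenchymal filament vimentin, was at 4041 to 7407 CPM. Of 5 prostate luminal genes 2 reached 1 CPM in PC3 cells, with TMPRSS2 at 17.4 to 39.7 CPM, but KLK2 and KLK3, the latter encoding prostate-specific antigen, were at 0. Of 4 ovarian carcinoma genes 2 reached 1 CPM in HeyA8 cells, with PAX8 at 59.5 to 217 CPM, and MUC16 and FOLR1 did not. Of 4 leukocyte genes only CD68 reached 1 CPM, at up to 37.9 CPM in PC3 and 96.1 CPM in HeyA8 cells. Of 3 endothelial genes 1 reached 1 CPM in PC3 and 2 in HeyA8 cells, with sums of at most 5.29 and 10.5 CPM.

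After siCAG in HeyA8 cells, all 58 genes were lower than after siNT1 in the fit over both times, none by less than 2-fold. Their log2 fold changes had a median of -2.60, against -0.01 over all 13872 genes tested. At 24 h, 57 of 58 were below siNT1 and 39 were under 50% of it, with a median of 39.8%. At 48 h all 58 were below siNT1, 54 were under 10% and 40 under 2%, with a median of 1.34%. In edgeR's quasi-likelihood test over both times, 10 of the 58 passed an adjusted p of 0.05 as lower (17.2%), against 4.93% of all genes lower and 2.88% higher. The count moved with single libraries. Without the siCAG library at 24 h 58 genes were called (17.4% of all genes lower), without the one at 48 h 47 (21.9%), without the siNT1 library at 24 h 2 (0.369%) and without the one at 48 h 1 (0.291%). Without the siCAG library at 48 h the median was -1.31, and the 10 genes called with all libraries were all called, from CENPE (-4.06) and TTK (-4.04) to ECT2 (-2.12) and KIF18A (-1.95). ASPM, DEPDC1, NUF2, KIF11, MAD2L1 and CKAP2 then had -3.69, -3.76, -3.15, -3.01, -2.62 and -2.40, and CDK1 and ANLN had -3.26 and -2.87. In these fits 1 group holds 1 library, so the spread comes from the other groups alone. In a model with a time term of its own for each siRNA, chosen after the data were seen, 56 of 58 were lower at 24 h, where 32.1% of all genes were, and 58 of 58 at 48 h, where 30.9% of all genes were. That model leaves 1 residual degree of freedom, which comes from the mock and siNT1 libraries.

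Among the cyclins and mitotic kinases, 10 of 10 genes were at least 2-fold lower in the fit over both times and 0 of 10 passed the test, against 4.93% of all genes lower. Without the siCAG library at 48 h 7 of 10 passed, against 21.9% of all genes, and without either siNT1 library 0 did. CDK1, the kinase that starts mitosis (chr10:60778331-60794852, hg38), had 195 and 214 CPM after siNT1, 233 and 244 CPM after mock treatment and 242 and 218 CPM after siGGGGGC at 24 and 48 h. After siCAG it had 21.4 CPM at 24 h and 1.01 CPM at 48 h, or 11% and 0.469% of siNT1. Both siCAG libraries lay far below the other 6, yet its log2 fold change of -4.59 ± 1.14 (SE, 2 libraries a group) had an adjusted p of 0.0572. CCNB1, the cyclin B1 partner of CDK1, went from 373 and 408 CPM after siNT1 to 196 and 8.79 CPM after siCAG. PLK1 had 176 and 191 CPM after siNT1, and 130 and 1.56 CPM after siCAG. AURKA, the spindle pole kinase, kept 7.44% of its siNT1 level at 48 h (17.4 against 234 CPM), and AURKB, the kinase of the chromosomal passenger complex, kept 1.66% (1.82 against 109 CPM). PLK1 and AURKA were still at 73.8% and 70.7% of siNT1 at 24 h, and both were far lower at 48 h. CDC25C, the phosphatase that activates CDK1, was chosen after its values were seen: it was counted in 1 read at 48 h after siCAG, with 17.4 CPM in the 24 h library.

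In the spindle checkpoint and anaphase genes 2 of 8 passed the test, 5 of 8 without the siCAG library at 48 h, and 1 and 0 of 8 without the siNT1 library at 24 and at 48 h, with the shares of all genes given above. TTK, the MPS1 kinase that starts the checkpoint signal, had 121 and 133 CPM after siNT1, and 7.7 and 2.17 CPM after siCAG. Both siCAG libraries lay far below the rest, and its log2 fold change was -4.80 ± 0.55 (adjusted p = 0.00856, edgeR). MAD2L1, which encodes the checkpoint protein MAD2, went from 111 and 122 CPM to 19 and 3.37 CPM (-3.58 ± 0.69, adjusted p = 0.0337). BUB1, a checkpoint kinase, had 185 and 188 CPM after siNT1 and 76.6 and 1.78 CPM after siCAG (-2.73 ± 1.30, adjusted p = 0.213). CDC20, the activator of the anaphase promoting complex, had 473 and 486 CPM after siNT1, then 357 CPM at 24 h and 6.71 CPM at 48 h (-1.94, adjusted p = 0.379). PTTG1, the securin gene, named after its values were seen, was the 1 gene of the 58 not below siNT1 at 24 h: it had 146 CPM after siCAG against 139 CPM, and 7.78 against 142 CPM at 48 h.

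Of the kinesins 2 of 9 passed, against 4.93% of all genes lower. Their median log2 fold change was -1.60 without the siCAG library at 48 h. The calls were lost without either siNT1 library. KIF11, the motor that pushes spindle poles apart, had 192 and 188 CPM after siNT1 and 25 and 3.66 CPM after siCAG (-4.01 ± 0.72, adjusted p = 0.0293). KIF18A, a motor that restrains chromosome movement at the metaphase plate (chr11:28020616-28108199), had 64.9 and 61.2 CPM after siNT1 and 17.2 and 26.4 CPM after siCAG (-1.54 ± 0.27, adjusted p = 0.0286). It was the kinesin that kept most RNA at 48 h, 43.2% of siNT1. KIF20A, a kinesin of the central spindle, was near its control level at 24 h: it had 195 and 253 CPM after siNT1, 184 CPM at 24 h after siCAG and 1.04 CPM at 48 h, or 94.4% and 0.41% of siNT1.

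In the centromere, kinetochore and passenger group 2 of 10 passed, against 4.93% of all genes lower. The group's median log2 fold change was -1.34 without the siCAG library at 48 h. Not all of its calls held without either siNT1 library. CENPE, a kinetochore motor that carries chromosomes to the plate (chr4:103105806-103198409), had 158 and 143 CPM after siNT1, and 10.3 and 5.87 CPM after siCAG (-4.27 ± 0.31, adjusted p = 0.00263). It had the smallest p of the 58 and was called in each of the 14 alternatives with a test. NUF2, a subunit of the NDC80 complex that binds microtubules, went from 90.9 and 81.4 CPM to 9.97 and 0.681 CPM (-4.33 ± 0.96, adjusted p = 0.0449), and NDC80 itself from 88.8 and 85.1 CPM to 27.2 and 0.713 CPM (adjusted p = 0.152). CENPF had 299 and 328 CPM after siNT1 and 114 and 7.33 CPM after siCAG. BIRC5, the survivin subunit of the passenger complex, had 181 and 173 CPM after siNT1 and 89.1 and 0.843 CPM after siCAG. SPC25, another NDC80 complex subunit and named after its values were seen, had 28.2 CPM after siNT1 at 48 h and no read after siCAG, which makes it at least 290-fold lower at a floor of 3 counts per library.

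Of the spindle assembly, cytokinesis and chromosome genes, CKAP2 and ECT2 kept comparatively high levels at 48 h, and all 5 chromosome genes were under 2% of siNT1. ASPM, a spindle pole protein, had 195 and 200 CPM after siNT1 and 16.3 and 1.36 CPM after siCAG (-4.86 ± 0.93, adjusted p = 0.0337). TPX2, which activates Aurora A on the spindle, had 598 and 640 CPM after siNT1 and 356 and 20.2 CPM after siCAG. CKAP2, a spindle and microtubule protein (chr13:52455360-52476631), had 266 and 257 CPM after siNT1, and 53.3 and 61.2 CPM after siCAG (-2.19 ± 0.23, adjusted p = 0.00647). ECT2, the exchange factor that activates RhoA for cytokinesis (chr3:172750685-172821474), had 370 and 418 CPM after siNT1, and 86.2 and 133 CPM after siCAG (-1.87 ± 0.22, adjusted p = 0.00886). Both had lower siCAG values than any other HeyA8 library, and neither was lower at 48 h than at 24 h. ANLN, the anillin scaffold of the contractile ring, went from 592 and 563 CPM to 82.7 and 6 CPM (adjusted p = 0.0518), and PRC1, which bundles midzone microtubules, from 268 and 284 CPM to 143 and 4.05 CPM. TOP2A, the topoisomerase that untangles chromosomes, had 551 and 641 CPM after siNT1 and 142 and 4.09 CPM after siCAG. MKI67, the Ki-67 proliferation antigen, had 750 and 781 CPM after siNT1, 386 CPM at 24 h and 1.98 CPM at 48 h after siCAG, 0.253% of siNT1. DEPDC1 went from 201 and 201 CPM to 15.2 and 1.04 CPM (-4.99 ± 1.01, adjusted p = 0.0377), and FOXM1, the transcription factor that drives many of these genes, from 254 and 287 CPM to 199 and 7.39 CPM (-1.94, adjusted p = 0.315).

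**Figure D2:**
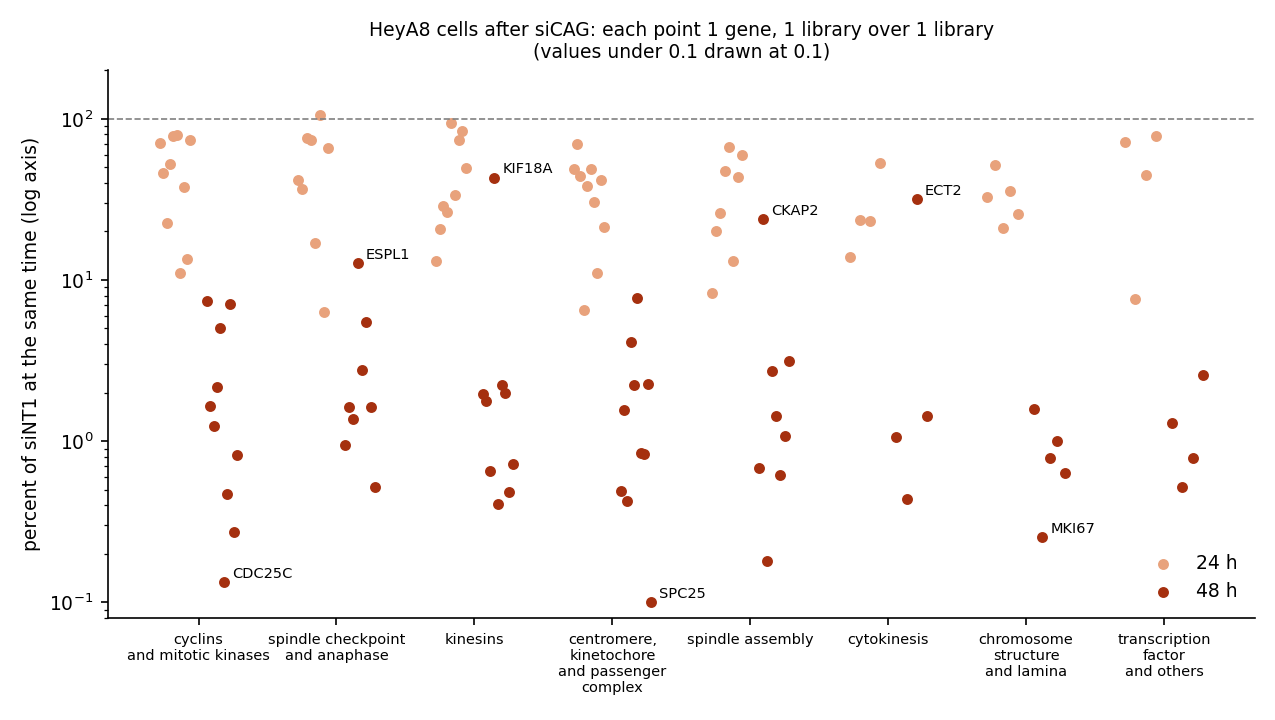
Level of each of the 58 genes in HeyA8 cells after siCAG as a percent of siNT1 at the same time, on a log axis, by role, light for 24 h and dark for 48 h. Each point is 1 library over 1 library and has no error. Medians were 39.8% at 24 h and 1.34% at 48 h, and KIF18A, ECT2, CKAP2 and ESPL1, at 43.2%, 31.8%, 23.8% and 12.7%, are the 4 genes at or above 10% at 48 h.

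The change between the times was tested as the difference between 48 and 24 h after siCAG minus the same difference in mock and siNT1 cells. In HeyA8 cells 55 of 58 genes were lower (94.8%) and 2 were higher, against 24.6% of all genes lower and 26.9% higher, with a median of -4.70 on the log2 scale. The 2 higher genes were KIF18A (0.70) and ECT2 (0.46), and CKAP2, with 0.34, did not pass. Among the genes with more than 3 counts at 48 h after siCAG, the steepest were KIF20A (-7.68) and MKI67 (-7.64). CDC25C and SPC25 had at most 3 counts there and were not ranked. These tests rest on 1 siCAG library at each time, and the model shares 1 residual degree of freedom over genes. In PC3 cells 57 of 58 were below 0 for the same difference, with a median of -0.52, but 0 of 58 passed, as did 0% of all 15136 genes. In PC3 cells 26 of the 58 had an unadjusted p under 0.05 there, against 6.28% of all genes.

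The response in HeyA8 cells was also read by promoter, as a description. At 24 h after siCAG the median was 42.5% of siNT1 for the 32 genes with CHR and CCAAT in a window, 34.3% for the 14 genes with 1 motif and 28.9% for the 4 with neither. At 48 h, in the library that stands apart, the order of these classes was the opposite. The 32 genes with CHR and CCAAT in a window had a median of 1.01% of siNT1 at 48 h after siCAG, with a range from 0 to 43.2%, and the 14 genes with 1 motif had a median of 1.15%. The 4 genes with neither motif had a median of 5.6%, from 2% to 23.8%. The 8 genes with no RefSeq window had 54.3% at 24 h and 2.1% at 48 h. Of the 3 genes that were not lower at 48 h than at 24 h after siCAG, ECT2 and KIF18A had both motifs and CKAP2 had neither.

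In PC3 cells after siCAG the same 58 genes were all below siNT1 in the fit over both times, by less. The median log2 fold change was -0.59, against -0.01 over all 15136 genes, 6 genes were at least 2-fold lower and 29 of 58 had an unadjusted p under 0.05, against 13.5% of all genes. In edgeR's test 0 of 58 passed as lower, where 1.16% of all genes did, and with DESeq2 5 of 58 passed (3.03% of all genes). Without the siCAG library at 24 h 6 were called (0.726% of all genes) and the median was -0.86, and without the one at 48 h it was -0.28. In the model with separate time terms 1 of 58 was lower at 24 h, with 0.694% of all genes, and 29 of 58 at 48 h, with 4.57% of all genes. By 48 h the median gene stood at 55% of siNT1, from 19.2% for ANLN to 88.4% for CDC20.

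By role, the cytokinesis genes had the lowest median in PC3 cells after siCAG (-0.99 over 4 genes) and the spindle checkpoint genes the highest (-0.46 over 8 genes). ANLN had 406 and 284 CPM after siNT1 and 192 and 54.4 CPM after siCAG (-1.60 ± 0.42, adjusted p = 0.16). The siCAG libraries of ANLN lay below both siNT1 libraries, without overlap. CDK1 had 376 and 220 CPM after siNT1 and 255 and 86.6 CPM after siCAG (-0.90, adjusted p = 0.213), and here the 24 h siCAG library lay above the 48 h siNT1 library. PLK1 had 107 and 109 CPM after siNT1 and 83.6 and 61.8 CPM after siCAG (-0.59 ± 0.16, adjusted p = 0.17). NUF2 had 48 and 32.6 CPM after siNT1, and 28.3 and 11 CPM after siCAG (-1.11 ± 0.28, adjusted p = 0.146), the smallest p of the group. MKI67 had 398 and 350 CPM after siNT1 and 313 and 113 CPM after siCAG (-0.93, adjusted p = 0.22). KIFC1, a minus-end motor, had -0.65 (adjusted p = 0.202), ESPL1, the separase that cuts cohesin, -0.79 (adjusted p = 0.174), ASPM -1.11 (adjusted p = 0.277) and CDCA3 -0.64 (adjusted p = 0.256), the smallest p of their roles. CDC20, CCNB1, TPX2 and AURKA lay nearest to siNT1, with -0.11, -0.20, -0.23 and -0.25.

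The response to siCAG was compared between the lines as an interaction over all 16 libraries. For all 58 genes the fitted log2 fold change was lower in HeyA8 cells, with a median difference of 1.87 on the log2 scale (PC3 minus HeyA8) against -0.13 over all 15887 genes. CENPE (3.42 ± 0.38, adjusted p = 0.0054) and TTK (3.77 ± 0.71, adjusted p = 0.045) passed edgeR's test, 2 of 58, where 0.384% of all genes were called higher and 0.252% lower. For CENPE the PC3 levels were 52.5 and 23.2 CPM after siNT1, and 27.2 and 16.6 CPM after siCAG. For TTK they were 68 and 32.3 CPM after siNT1 and 40.7 and 14.5 CPM after siCAG. For both genes the 24 h siCAG library thus lay above the 48 h siNT1 library. DEPDC1 had a larger difference, 4.15 ± 1.09, but its adjusted p was 0.125. With mock in place of siNT1 0 of 58 passed (0.636% of all genes were higher). Without the HeyA8 siCAG library at 48 h, an alternative chosen after the data were seen, 46 of 58 differences were above 0 with a median of 0.67, and 11 passed as higher (4.5% of all genes), among them CENPE (3.15) and TTK (2.98).

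After siGGGGGC in PC3 cells the genes split. Of the 58, 32 were below and 26 above siNT1 in the fit over both times, with a median of -0.11 that turned to 0.08 without the siNT1 library at 48 h and to 0.015 without the siGGGGGC library at 24 h, with 28 below and 30 above in each. In edgeR's test 5 were lower (8.62%), a share near that of all genes, of which 6% were lower and 3.67% higher. FOXM1 had 169 and 196 CPM after siNT1 and 97.5 and 49.1 CPM after siGGGGGC, without overlap (-1.36 ± 0.27, adjusted p = 0.0287). MKI67, with a GCCCCC site, had 398 and 350 CPM after siNT1 and 168 and 130 CPM after siGGGGGC (-1.35 ± 0.29, adjusted p = 0.0334). CENPE had 52.5 and 23.2 CPM after siNT1 and 19.4 and 15.2 CPM after siGGGGGC (-1.04 ± 0.23, adjusted p = 0.035). KIF15, a spindle kinesin, had 58 and 38.3 CPM after siNT1, and 24.5 and 16.4 CPM after siGGGGGC (-1.24 ± 0.29, adjusted p = 0.0421). KIF14, a kinesin of the midbody, had 101 and 32.9 CPM after siNT1 and 11.1 and 11.4 CPM after siGGGGGC (-2.30 ± 0.58, adjusted p = 0.0474). In all 5 genes the siGGGGGC libraries lay below both siNT1 libraries, but without either siNT1 library 0% of all genes passed, and without the siGGGGGC library at 48 h 2 of 58 did, against 3.47% of all genes lower. The 5 genes were picked by the test on these same libraries, so their lack of overlap is no separate check. KIF11, NUF2 and CEP55, which did not pass, also had both siGGGGGC libraries below both siNT1 libraries. The share of all genes without such overlap is not given here. The siGGGGGC comparisons share the siNT1 libraries with those of siCAG.

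The other 3 genes with a GCCCCC site did not pass the test. BIRC5 had 300 and 341 CPM after siNT1 and 458 and 642 CPM after siGGGGGC (0.78, adjusted p = 0.0688), PLK1 had 107 and 109 CPM after siNT1 and 128 and 112 CPM (0.14, adjusted p = 0.567), and INCENP, the passenger complex scaffold, 100 and 89.4 CPM after siNT1 and 114 and 122 CPM (0.33, adjusted p = 0.263). BUB1, with 150 and 131 CPM after siNT1 and 183 and 250 CPM after siGGGGGC, had 0.64 (adjusted p = 0.125). UBE2C, the ubiquitin-conjugating enzyme of the anaphase promoting complex, FAM83D and CCNB2 had 0.56, 0.54 and 0.40 (adjusted p = 0.0648, 0.0657 and 0.133), and CEP55, an abscission protein, had -1.18 (adjusted p = 0.0586). CDK1 had 227 and 178 CPM after siGGGGGC (-0.50, adjusted p = 0.243), CCNB1 157 and 152 CPM (0.06), AURKA 188 and 162 CPM (0.16), TPX2 453 and 397 CPM (0.44, adjusted p = 0.0799) and TOP2A 172 and 203 CPM (-0.61, adjusted p = 0.364). KIF11 had 108 and 53.6 CPM after siNT1 and 41.8 and 32.2 CPM after siGGGGGC (-1.02, adjusted p = 0.137). CENPF had 262 and 90 CPM after siNT1 and 71.5 and 102 CPM after siGGGGGC (-0.81, adjusted p = 0.243), and its 48 h siGGGGGC library lay above its 48 h siNT1 library.

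**Figure D3:**
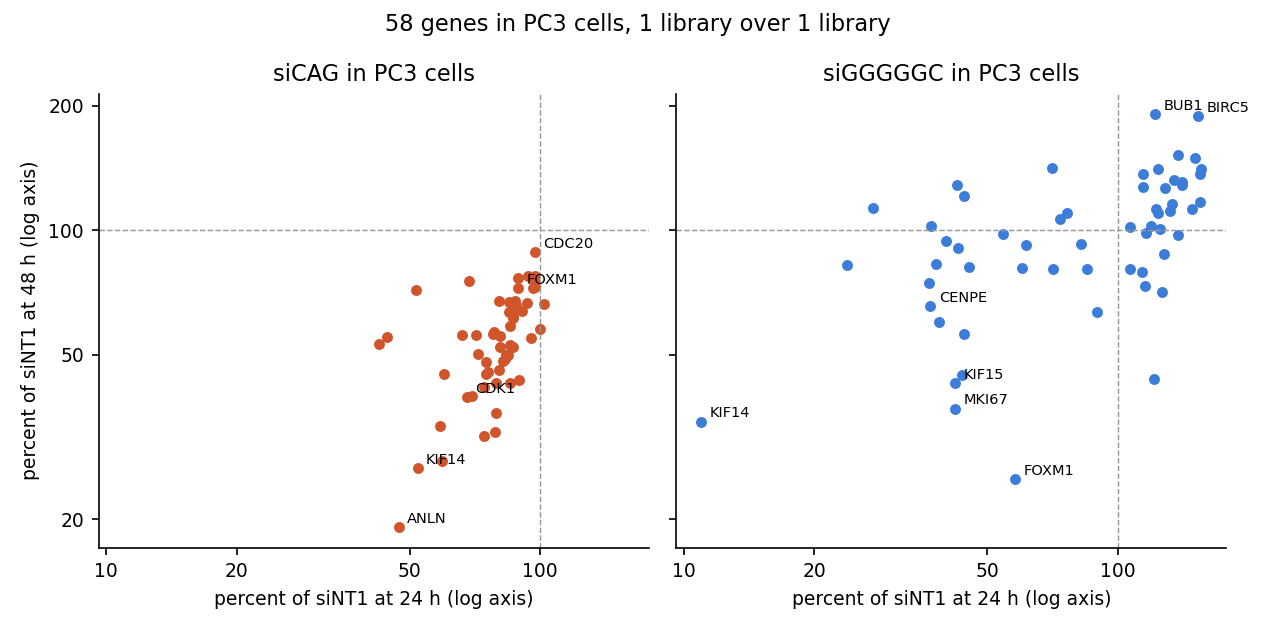
The 58 genes in PC3 cells after siCAG (left) and siGGGGGC (right), as a percent of siNT1 at 24 h (x) and at 48 h (y), on log axes. Each point is 1 gene from 1 library over 1 library, and dashed lines mark 100%. After siCAG all 58 lie below 100% at 48 h, down to ANLN at 19.2%, while after siGGGGGC 29 lie below it and FOXM1, MKI67, KIF15, CENPE and KIF14 lie below it at both times.

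After siGGGGGC in HeyA8 cells 0 of 58 genes passed the test in edgeR, as did 0% of all 13872 genes, and 0 of 58 had an unadjusted p under 0.05, against 9.75% of all genes. DESeq2 called 0 of the 58 too, against 1.9% of all genes lower and 0.396% higher. Of the 58, 45 were above siNT1, with a median of 0.23. With the libraries of each time alone, 55 were above siNT1 at 24 h (median 0.33) and 39 at 48 h (median 0.15). CDK1 had 242 and 218 CPM after siGGGGGC against 195 and 214 CPM after siNT1, TOP2A 836 and 933 CPM against 551 and 641 CPM, and FOXM1 234 and 138 CPM against 254 and 287 CPM. The residual spread of this fit, with 1 time term for all treatments, came to a coefficient of variation of 28.2%, against 18% in PC3 cells. With a time term of its own for each siRNA it was 6.86% in HeyA8 and 12.9% in PC3 cells. The counts from that model are given at the end. Without the siCAG libraries of the line 3 of 58 were called higher (0.959% of all genes), and with the 4 compared libraries alone 10 were higher (3.09%) and 1 was lower (5.78%). The median of the 58 was 0.25 in both of these fits. In fits over the line with 1 of those 4 libraries left out, the median lay between -0.33 and 0.97. Such fits keep the siCAG libraries and 1 time term for all treatments.

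The time course after siGGGGGC in HeyA8 cells, relative to mock and siNT1 cells, was lower at 48 h for 12 of 58 genes (20.7%) and higher for 2, against 12.5% of all genes lower and 8.93% higher. These tests rest on 1 siGGGGGC library at each time, and their spread comes from the mock and siNT1 libraries alone. FOXM1 fell most (-0.99), followed by AURKB (-0.87), KIF20A (-0.76), CCNB1 (-0.65) and CENPE (-0.64). CCNB1 had 465 CPM at 24 h and 321 CPM at 48 h after siGGGGGC, against 373 and 408 CPM after siNT1. The other lower genes were BUB1B, KIF14, AURKA, NCAPH, KIF15, CDCA3 and KIF2C. CDC25C (0.64) and MELK (0.50) were higher. DESeq2 called 6 lower (3.53% of all genes) and 0 higher (1.24%). In PC3 cells 0 of 58 passed in this comparison, as did 0% of all genes, and 15 of 58 had an unadjusted p under 0.05, against 17.2% of all genes. For the siGGGGGC response the difference between the lines passed for 0 of 58 in edgeR, as it did for 0% of all 15887 genes, and 3 of 58 had an unadjusted p under 0.05, against 6.63% of all genes. DESeq2 called 0 of 58 in that comparison, against 0.0755% of all genes lower and 0.0441% higher.

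The controls differed among themselves in PC3 cells. After siNT1, 54 of 58 genes were below mock, with a median of -0.38, and 1 of 58 passed, CENPE, against 0.0264% of all genes. CENPE had 144 and 114 CPM after mock treatment and 52.5 and 23.2 CPM after siNT1 (-1.86 ± 0.23, adjusted p = 0.0342), but with any 1 of these 4 libraries left out 0% of all genes passed, so the call could not be checked that way. CENPF had 451 and 396 CPM after mock treatment and 262 and 90 CPM after siNT1 (-1.40, adjusted p = 0.36). Against mock in place of siNT1, 14 of 58 were called lower after siCAG in PC3 cells (1.76% of all genes) and 21 after siGGGGGC (12.3%). In HeyA8 cells 47 of 58 were below mock after siNT1, with a median of -0.16. The sum of the 58 after siNT1 was 10635 and 11174 CPM, below the 11989 and 12275 CPM after mock treatment at the same times. With the 4 compared libraries alone 47 were also below, with a median of -0.15. The direction turned in fits with 1 library left out, which keep the siCAG libraries and 1 time term for all treatments. There 54 of 58 were above mock without the siNT1 library at 24 h (median 0.35) or the mock library at 48 h (0.61). The medians were -0.88 and -0.62 without the siNT1 library at 48 h and the mock library at 24 h. In the fit with all libraries 0 of 58 passed, as did 0% of all genes, and 0 of 58 had an unadjusted p under 0.05, against 1.28% of all genes. Between 24 and 48 h in mock and siNT1 cells, 0 of 58 passed in PC3 cells (0.0198% of all genes were lower), with a median of -0.22 and 21 of 58 at an unadjusted p under 0.05, against 8.73% of all genes. In HeyA8 cells 1 of 58 was higher, AURKB (0.47), against 5.31% of all genes higher and 6.01% lower.

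Other genes of the same processes were read from 6 lists with 153 genes. In HeyA8 cells after siCAG, 35 of 52 genes of S phase and DNA replication were lower in the fit over both times (median -2.66), against 4.93% of all genes. Its 3 smallest p were those of GMNN, the geminin inhibitor of replication licensing (-3.31), the helicase HELLS (-4.14) and PCNA, the sliding clamp of DNA polymerase (-2.46). The sum of this list was 32% of siNT1 at 24 h and 12.8% at 48 h, while that of the 58 genes was 42.5% and 3.6%. Of the other kinetochore and centromere genes 17 of 33 were lower (median -1.95), among them CENPK (-4.36 ± 0.30, adjusted p = 0.00231). Of the cohesin and condensin genes 8 of 20 were lower (median -1.57), with the smallest p for SMC4, a condensin subunit (-3.56 ± 0.19, adjusted p = 0.00167), and SGOL2, which protects centromeric cohesin (-4.31 ± 0.24). The sum of the kinetochore list was 40.1% of siNT1 at 24 h and 30% at 48 h, and that of the cohesin and condensin list 31.5% and 34.4%. Of the subunits and regulators of the anaphase promoting complex 1 of 17 was lower, its inhibitor FBXO5 (-2.96 ± 0.22, adjusted p = 0.00263), a share near that of all genes, and the list's sum was 71.3% and 60.7% of siNT1. Without the siCAG library at 48 h the lower counts were 50 of 52 for S phase, 28 of 33, 19 of 20 and 6 of 17, against 21.9% of all genes. Without the siNT1 library at 24 h they were 6, 1, 2 and 1, against 0.369% of all genes, and without the one at 48 h 5, 1, 2 and 1, against 0.291%.

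Of the genes that control G2/M entry, 6 of 18 were lower and 1 was higher in HeyA8 cells after siCAG, against 4.93% of all genes lower and 2.88% higher. CDKN1A, which encodes the p21 inhibitor of cyclin-dependent kinases, had 404 and 362 CPM after siNT1 and 1542 and 1768 CPM after siCAG, without overlap (2.11 ± 0.26, adjusted p = 0.00993). MASTL, the Greatwall kinase, CHEK1, the checkpoint kinase, and CDC25A, a phosphatase that activates cyclin-dependent kinases, had -2.54, -2.04 and -4.90. For CDC25A the log2 fold change was -3.93 without the siCAG library at 48 h and -6.67 without the one at 24 h. Of the DREAM and MuvB genes 3 of 13 were lower: RBL1, the p107 pocket protein (-3.20 ± 0.24, adjusted p = 0.00263), LIN9 (-2.74) and LIN54 (-1.25). Without the siCAG library at 48 h 11 of 18 and 7 of 13 were lower, against 21.9% of all genes, and without either siNT1 library 0 of 18 and 1 of 13. CDKN1A passed without the siCAG library at 48 h (1.98) or at 24 h (2.22) and did not pass without the siNT1 library at 24 h (2.21, adjusted p = 0.0959, edgeR) or at 48 h (1.98, adjusted p = 0.143). In PC3 cells after siCAG, 1 of 20 cohesin and condensin genes, NCAPD2 (-1.44 ± 0.21, adjusted p = 0.0187), and 1 of 18 G2/M entry genes, CDC25A (-1.57 ± 0.23, adjusted p = 0.0188), were lower, and 0 of the 52 S phase genes passed, where 1.16% of all genes were lower. NCAPD2 passed in 1 and CDC25A in 1 of the 4 fits with 1 siCAG or siNT1 library left out, and CDC25A did not pass against mock (-0.64, adjusted p = 0.157). CDKN1A had 52.2 and 31.8 CPM after siNT1 and 43.7 and 29.6 CPM after siCAG there.

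**Figure D4:**
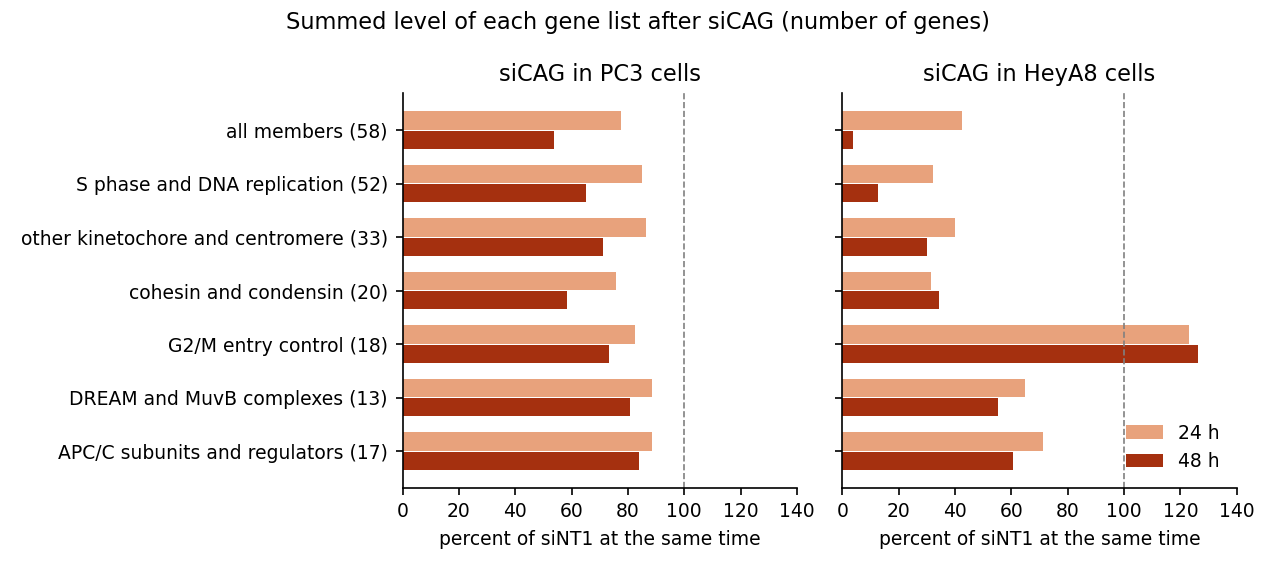
Summed level of the 58 genes and of the 6 related lists after siCAG, as a percent of siNT1 at 24 h (light) and 48 h (dark), in PC3 and HeyA8 cells, with the number of genes in brackets. Each bar is 1 library over 1 library and has no error. In HeyA8 cells the 58 genes go from 42.5% to 3.6% and the S phase list from 32% to 12.8%, and the G2/M entry list, which holds CDKN1A, stands at 123% and 126%.

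After siGGGGGC in PC3 cells the same lists held calls in both directions, against 6% of all genes lower and 3.67% higher. Of the other kinetochore genes 6 of 33 were lower and 1 higher. PMF1 (-1.39 ± 0.25, adjusted p = 0.0234) and KNTC1 (-1.22) were among the lower, and MAD1L1, a checkpoint protein, was higher (0.75). Of the cohesin and condensin genes 3 were lower, RAD21, the ring's kleisin subunit (-1.42 ± 0.21, adjusted p = 0.0151), STAG1 (-1.07) and PDS5A (-1.32). WEE1, the kinase that holds CDK1 inactive, was higher, with 33.2 and 33.5 CPM after siNT1 and 77.5 and 74.9 CPM after siGGGGGC (1.19 ± 0.17, adjusted p = 0.0131). CDKN1A was lower than after siNT1 (-1.17 ± 0.27, adjusted p = 0.0392), but with 20.8 and 11 CPM after mock treatment and 31.4 and 9.77 CPM after siGGGGGC its direction turned against mock (0.26). Among the 52 S phase genes RPA1 (1.21), RRM2 (0.92) and ORC6 (0.77) were higher and POLA1 (-0.90) lower, and the direction of RRM2 also turned against mock (-0.046). RBL1 was lower (-1.03) and E2F5 higher (1.10). Without either siNT1 library 0 of the 153 genes passed, as did 0% of all genes. In HeyA8 cells 0 of the 153 genes passed after siGGGGGC, as did 0% of all genes.

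Before any siRNA, the lines differed in their mock-treated levels of these genes. On the scale of the 4 mock libraries, 45 of 58 were lower in PC3 than in HeyA8 cells (77.6%) and 6 were higher, against 36.3% of all 14827 genes lower and 38.7% higher, with a median of -0.76. Per kilobase of the exon length in the table, CDC20 had 96.2 ± 8.57 CPM (SD, n = 2) in PC3 and 344 ± 19.2 in HeyA8 cells, and CCNB1 73.5 ± 1.31 and 238 ± 10.5. Their log2 differences were -1.84 and -1.70, and those of CKAP2 and KIF18A were -1.73 and -1.64. BIRC5 was higher in PC3 cells, with 39 ± 0.34 against 23.7 ± 0.68 CPM per kilobase (0.72), as was CDK1, with 57 ± 11.6 against 37.2 ± 1.14 (0.60). In PC3 cells TPX2, CDC20, TOP2A and CCNB1 had the 4 highest levels per length and in HeyA8 cells CDC20, CCNB1, TPX2 and TOP2A, and CDC25C had the lowest in both. In PC3 cells TPX2 (102 ± 10.6) and CDC20 did not differ beyond their SDs, nor did CCNB1 and TPX2 (234 ± 6.75) in HeyA8 cells. The order of genes per length depends on the exon length in the table. For SPC24 that length, 654 bases, is shorter than its longest annotated 3′ UTR, 1690 bases. In CPM without length, MKI67 was the highest in HeyA8 cells (1008 and 1010 at 24 and 48 h). SPC24 was the lowest in both lines, with 15.3 and 12 CPM in PC3 and 10.4 and 11.1 CPM in HeyA8 cells.

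**Figure D5:**
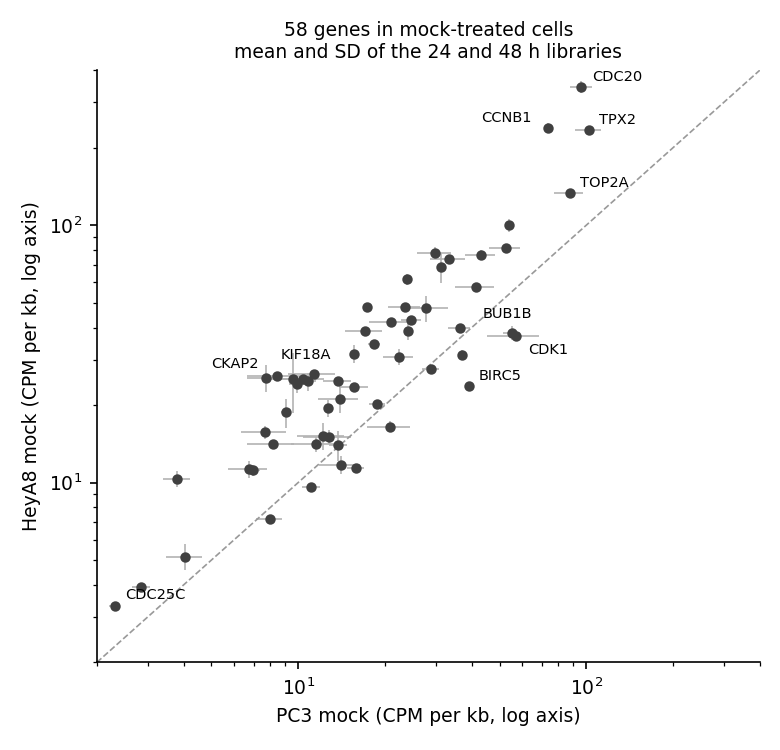
Level of each of the 58 genes in mock-treated PC3 (x) and HeyA8 cells (y), in CPM per kilobase on log axes, as the mean and SD of the 24 and 48 h libraries. Points above the dashed line are higher in HeyA8 cells. CDC20 is at 96.2 and 344, and BIRC5, at 39 and 23.7, lies below the line.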

How the data were processed

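Total RNA depleted of ribosomal RNA was sequenced from 16 libraries. Per the labels, the authors aligned reads to hg38 with STAR and counted them per gene with HTSeq, and the deposited values are raw counts; the study's methods name an Ensembl annotation, and the aligner's version and the strand setting are not given in the sources used here. Counts were tested with edgeR 4.0.16 (TMM, filterByExpr, quasi-likelihood) within each line, with treatment and time as terms, and p-values were adjusted by the Benjamini-Hochberg method over all genes tested, with a threshold of 0.05. Interactions with time and between the lines, and mock-treated lines, were fitted separately. Standard errors were derived from the F statistic. The siRNA comparisons share the siNT1 libraries. A self-test on simulated data for siCAG recovered 93 of 100 genes changed 4-fold in PC3 (14929 genes) and 54 of 100 in HeyA8 (13663 genes), and 43 and 3 of 100 changed 2-fold. DESeq2 1.42.0, RLE size factors, other filters, other controls and leaving out libraries were alternatives. The genes and lists were chosen with earlier results of these data known. Named genes were up to 3 called per role, or else the smallest p, plus 20 standard mitotic genes; among listed genes, up to 3 called per direction and CDKN1A. Others were named after their values were seen, among them PTTG1, ESPL1, SPC25, CDC25C, INCENP and the genes nearest to siNT1. The values of 2 listed genes are not reported here.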

Additional observations from a re-analysis of the deposited data

Results flagged for a closer look

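The response to siCAG differed between the lines for 2 of the 58 genes in a test of the difference itself (edgeR, all 16 libraries). Of all genes 0.384% were called higher and 0.252% lower. For TTK the log2 difference, PC3 minus HeyA8, was 3.77, and for CENPE it was 3.42. With mock in place of siNT1 neither passed. The change from 24 to 48 h after siCAG in HeyA8 cells differed from that in mock and siNT1 cells for 55 of the 58 genes as lower and 2 as higher, against 24.6% of all genes lower and 26.9% higher. After siGGGGGC in HeyA8 cells it differed for 12 of 58 genes as lower and 2 as higher, against 12.5% and 8.93% of all genes, and DESeq2 called 6 and 0. Each of these time tests rests on 1 treated library at each time, and technical differences between libraries were not tested.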

How the results depend on the processing

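Counts are of the 58 genes, each with the percent of all genes called the same way. DESeq2 called 5 lower (3.03%) after siCAG in PC3 cells, where the fit reported above called 0. It called 8 lower (11.3%) and 3 higher (7.64%) after siGGGGGC in PC3 in place of 5 and 0, 2 lower (0.614%) for siNT1 against mock in PC3 in place of 1, 22 lower (10.9%) after siCAG in HeyA8 in place of 10, and 7 higher (2.13%) for the siCAG difference between the lines in place of 2. It also called 1 lower in the PC3 time comparisons of siCAG (0.00661%) and of siGGGGGC (0.918%) in place of 0, and 6 lower (3.53%) and 0 higher (1.24%) in that of siGGGGGC in HeyA8 in place of 12 and 2. With the 4 compared libraries alone, the counts were 44 lower (11.1%) for siCAG in PC3, 4 (0.664%) for siNT1 against mock in PC3, 20 (3.21%) for siCAG in HeyA8, 1 lower (5.78%) and 10 higher (3.09%) for siGGGGGC in HeyA8, and 14 lower (5.05%) for siNT1 against mock in HeyA8. With mock as control they were 14 lower (1.76%) for siCAG and 21 (12.3%) for siGGGGGC in PC3, and 0 higher (0.636%) for the siCAG difference between the lines. There CDKN1A (0.26) and RRM2 (-0.046) turned direction after siGGGGGC in PC3.

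With separate time terms, chosen after seeing the data, siCAG in PC3 gave 1 lower (0.694%) at 24 h and 29 (4.57%) at 48 h, and siCAG in HeyA8 gave 56 (32.1%) and 58 (30.9%). For siGGGGGC in PC3, 17 were lower (7.32%) and 1 higher (1.09%) at 24 h, and 9 lower (14.5%) and 4 higher (10.7%) at 48 h. For siGGGGGC in HeyA8, 30 were higher (4.9%) at 24 h, and 24 higher (21.9%) and 7 lower (24.3%) at 48 h. Without the other siRNA's libraries, 8 were lower (5.85%) and 1 higher (2.19%) for siGGGGGC in PC3, 4 lower (1.54%) for siCAG in HeyA8 and 3 higher (0.959%) for siGGGGGC in HeyA8. With no filter, 1 was higher (3.05%) for siGGGGGC in PC3, 1 lower (0.276%) between times in PC3 controls, and 2 lower (1.76%) and 1 higher (0.638%) for the siGGGGGC time comparison in PC3, where RLE size factors gave 1 (1.29%) and 1 (0.727%). Without the time term, 1 was lower (2.96%) for siGGGGGC and 0 (0%) for siNT1 against mock in PC3. Leaving out 1 library gave 0 to 6 lower (0.191% to 0.726%) for siCAG in PC3, 0 to 4 lower (0% to 13.4%) and 0 to 4 higher (0% to 10.1%) for siGGGGGC in PC3, 0 (0%) for siNT1 against mock in PC3, 1 to 58 lower (0.291% to 21.9%) for siCAG in HeyA8, and, chosen after seeing the data, 11 (4.5%) and 55 higher (4.8%) for the siCAG difference between the lines without the HeyA8 siCAG library at 48 and 24 h. The cause of these changes was not tested.

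Of the tested alternatives for single genes, 1479 kept direction and side of the threshold, 359 kept direction but no longer passed and 2 turned direction, and 218 single-time ratios with no test kept direction. The labels give no replicate numbers, and time was the block in the fits reported. At 48 h after siCAG in HeyA8 cells, SPC25 and CDC25C had at most 3 counts, so the depth of their decrease could not be measured.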
